A study of Mus musculus with 6 samples.

Results

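The genes described here are 30 genes of cholesterol and fatty acid synthesis and of its control by sterol regulatory element-binding proteins (SREBPs), taken by exact symbol from a table of 29940 genes. All 30 had 1 row each, and all 30 passed the filter described below. They are 7 enzymes of the mevalonate pathway, 11 enzymes that make squalene and build the sterol rings, 5 regulators of SREBP, the sterol carrier gene Stard4 and 6 genes of fatty acid synthesis. The list is not complete for these pathways, and other genes of them were not analysed here beyond the lists named below.

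The samples were organoids, small epithelial cultures grown in Matrigel from crypts of the large intestine; the crypts came from the inbred mouse strain C57BL/6J. After 2 days of culture they were kept for 24 hours with tumour necrosis factor alpha (TNF, 3 samples) or alone (Ctrl, 3 samples). The labels call the Ctrl group both untreated and vehicle-treated, and they speak of a combination with TNF without naming another agent. The dose of TNF and the age of the mice are not given in the sources used here. Whether replicates are separate animals or separate cultures is not stated. The p-values therefore refer to the variation among these 6 libraries alone, and part or all of it may be technical.

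RNA levels are given in FPKM, a unit in which read fragments are divided by transcript length and library size, so levels can be compared between genes. Depth, roughly estimated from the commonest low value within a preset window, was 2.81e+07 to 3.22e+07 reads per library. Values with ± are the mean and SD of the 3 libraries of a group. Epcam, a marker of epithelium, stood at 409.6 ± 16.0 FPKM in TNF and 451 ± 15.6 FPKM in Ctrl. Summed over 12 colon epithelium markers the level was 4221 to 4402 FPKM in TNF and 4428 to 4947 FPKM in Ctrl. Of these markers 2 rose (the keratins Krt8 and Krt18), 3 fell and 7 did not pass. By the same test, 12.9% of all tested genes were called higher and 11.1% lower. Car1, a carbonic anhydrase gene of colon epithelium, fell to 840.4 ± 13.2 FPKM in TNF, against 1492 ± 157 FPKM in Ctrl (limma adjusted p = 0.000328). The crypt stem cell gene Lgr5 fell to 34.8 ± 0.218 FPKM in TNF, against 46.3 ± 2.28 FPKM in Ctrl (adjusted p = 0.000638), and the intestinal transcription factor gene Cdx2 fell to 71.1 ± 3.06 FPKM in TNF, against 87.1 ± 1.77 FPKM in Ctrl (adjusted p = 0.00292). Over 13 leukocyte markers the sum was 33.7 to 59.3 FPKM in TNF and 30.2 to 51.1 FPKM in Ctrl, and of 5 tested 1 rose (Cd14). Under the filter, Ptprc stood at 0.374 to 0.382 FPKM in TNF and 0.146 to 0.198 FPKM in Ctrl. Cd3e stood at 0.398 to 0.595 FPKM in TNF and 0.0275 to 0.0761 FPKM in Ctrl. Without the filter, limma's adjusted p was 0.018 for Ptprc and 0.00647 for Cd3e. In the other leukocyte markers under the filter the groups overlapped. Over 12 stromal, endothelial and muscle markers the sum was 8.83 to 11.5 FPKM in TNF and 11.3 to 22.6 FPKM in Ctrl, and of 5 tested 2 fell. Of those under the filter, Col1a2 and Dcn were lower in TNF without overlap, and the others overlapped. Without the filter, limma's adjusted p was 0.0906 for Col1a2 and 0.287 for Dcn.

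Cells make cholesterol from acetyl-CoA through mevalonate, farnesyl diphosphate, squalene and lanosterol. When sterols are scarce in the endoplasmic reticulum, the escort protein Scap carries SREBP to the Golgi, where proteases release its active part, which enters the nucleus and raises the synthesis genes. When sterols are plentiful, Insig proteins hold Scap and SREBP back. The SREBP encoded by Srebf2 acts mainly on sterol synthesis and the one encoded by Srebf1 mainly on fatty acid synthesis. In the gut, dividing crypt cells are known for making their own cholesterol.

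With TNF, part of the sterol synthesis enzymes rose, by modest amounts, and none of the 6 fatty acid synthesis genes passed the test. Of the 18 sterol enzymes, 8 rose, none fell and 10 did not pass the test (none lower at an unadjusted p under 0.05 either), with a median log2 change of 0.26 against 0.00 over all 12350 genes tested. The test was limma's on log2(FPKM + 1), with Benjamini-Hochberg adjustment over those genes and a threshold of 0.05. It called 12.9% of all tested genes higher and 11.1% lower in TNF, 24.0% in all. Among the 5656 tested genes within the range of mean levels of the 30 genes, it called 15.4% higher and 13.8% lower, 29.2% in all, against 44.4% of the 18 enzymes called higher. Of all 30 genes, 10 rose, 2 fell and 18 did not pass. The 30 genes were chosen with earlier results of these data known, so these shares are not a test of the set. In bulk RNA, fewer cells of a type and less RNA per cell cannot be told apart, and this holds for every level below.

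**Figure D1:**
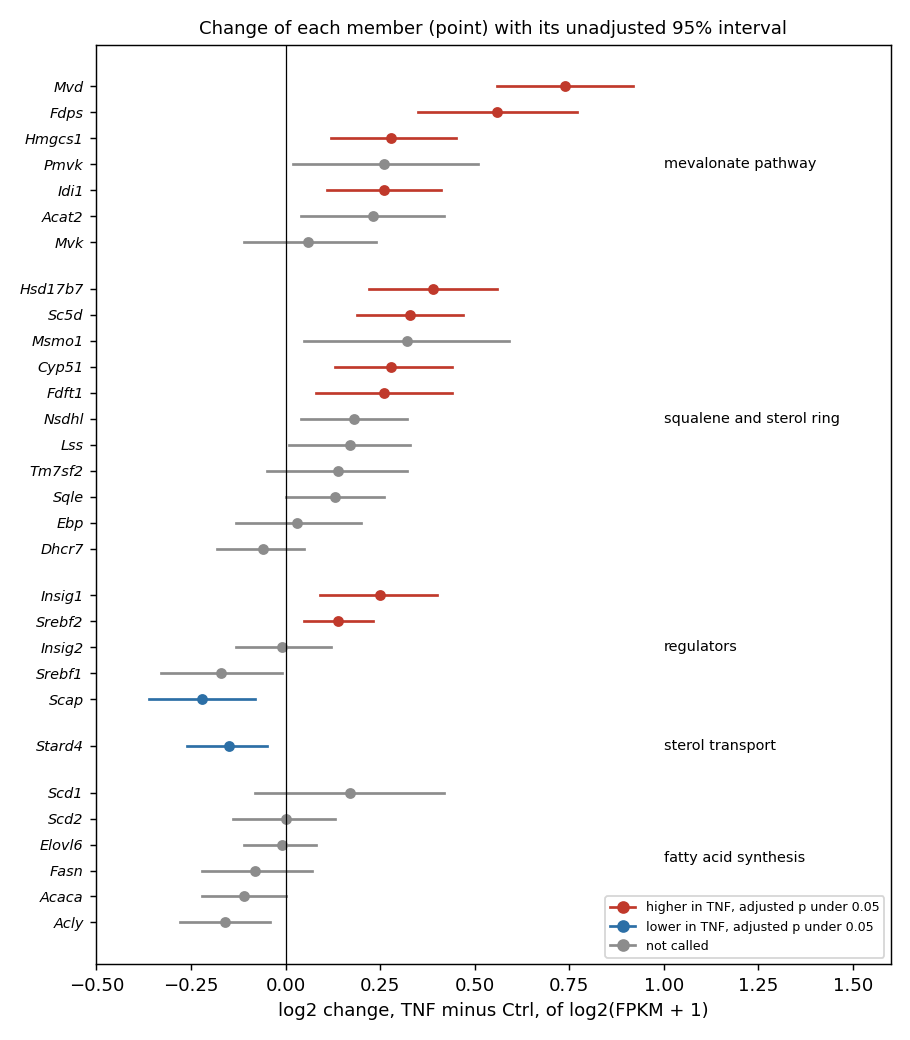
Log2 change (TNF minus Ctrl, of log2(FPKM + 1)) of each of the 30 genes, grouped by role, with its unadjusted 95% interval. Mvd (0.74) and Fdps (0.56) lie farthest to the right, the sterol enzymes except Dhcr7 lie right of 0, and Scap (-0.22) lies farthest to the left.

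The largest changes were in Mvd and Fdps, followed by Hsd17b7 and Sc5d. The calls of these 4 genes, and of no other gene of the 30, were kept in each of the 15 alternative analyses, among them the removal of any single library. Which others passed depended on the libraries used: 5 enzymes were called without Ctrl 1 or without TNF 3, 4 without TNF 1, 6 without Ctrl 3, 9 without Ctrl 2 and 10 without TNF 2. In each of these 6 analyses none was called lower, and 16 or 17 of the 18 changes lay above 0.

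Promoters were searched for letters known from SREBP target genes, since SREBP acts together with the CCAAT-binding factor NF-Y. RefSeq promoter windows on GRCm38.p6, from 250 bases before to 50 after the start, were found for 24 of the 30 genes. CCAAT, searched on both strands (ATTGG on the other), was in 14 of the 15 sterol enzyme genes with a window (93.3%), all but Acat2. It was in 20 of the 24 genes (83.3%), against 43.5% of 8896 tested genes with a window. By window, it was in 37.4% of all 32851 promoters. The strict SREBP letters TCACNCCAC, on both strands, were in 1 of the 24 genes (4.17%), Hmgcs1, against 1.36% of the tested genes. By window, they were in 1.24% of all promoters. The shorter CACNCNAC, chosen after the strict letters had been counted and contained in them, was in 5 of the 24 genes (20.8%) against 14.8% of the tested genes. CCAAT was also in genes that did not pass, among them Mvk, Nsdhl, Msmo1, Dhcr7 and Ebp. The 4 genes without it were Scap, which fell, and Acaca, Acat2 and Elovl6, which were not called. Stard4, which also fell, had no window. Such matches are descriptions of the letters, not proof of binding. The 200 bases before the start are shown for Hmgcs1, which holds the strict letters, for Mvd, Hsd17b7 and Sc5d, whose calls were kept throughout, and for Scap, a gene that fell and holds neither CCAAT nor the strict letters, though it holds the shorter letters on the opposite strand. Capitals mark CCAAT or ATTGG and, in Hmgcs1, also TCACCCCAC; the marked stretches do not overlap. All are written 5′ to 3′ on the strand of the gene.
Hmgcs1 (chr13:119690151-119690350, plus strand): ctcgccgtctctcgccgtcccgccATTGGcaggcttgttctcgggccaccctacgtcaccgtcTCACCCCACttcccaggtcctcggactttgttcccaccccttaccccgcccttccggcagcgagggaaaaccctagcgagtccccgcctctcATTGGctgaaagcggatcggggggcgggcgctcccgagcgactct
Mvd (chr8:122443423-122443622, minus strand): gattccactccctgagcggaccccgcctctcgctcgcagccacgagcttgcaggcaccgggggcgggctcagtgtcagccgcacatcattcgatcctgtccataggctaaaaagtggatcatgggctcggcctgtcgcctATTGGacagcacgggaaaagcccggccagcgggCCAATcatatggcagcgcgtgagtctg
Hsd17b7 (chr1:169969206-169969405, minus strand): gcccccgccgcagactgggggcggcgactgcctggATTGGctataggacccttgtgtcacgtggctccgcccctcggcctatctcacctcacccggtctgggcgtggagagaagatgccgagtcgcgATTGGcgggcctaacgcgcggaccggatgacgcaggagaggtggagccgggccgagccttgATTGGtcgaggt
Sc5d (chr9:42264301-42264500, minus strand): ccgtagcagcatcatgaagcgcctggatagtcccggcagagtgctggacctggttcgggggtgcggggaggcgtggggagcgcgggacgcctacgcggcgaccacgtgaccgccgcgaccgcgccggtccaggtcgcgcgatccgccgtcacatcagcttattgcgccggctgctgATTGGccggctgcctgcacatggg
Scap (chr9:110333088-110333287, plus strand): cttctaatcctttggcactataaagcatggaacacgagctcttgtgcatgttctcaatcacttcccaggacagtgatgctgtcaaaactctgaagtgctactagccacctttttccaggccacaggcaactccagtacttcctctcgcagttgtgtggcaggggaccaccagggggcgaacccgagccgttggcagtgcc

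The mevalonate pathway showed 4 rises among 7 genes, no fall and a median log2 change of 0.26, and all 7 changes lay above 0. Mvd encodes mevalonate diphosphate decarboxylase, which makes isopentenyl diphosphate (chromosome 8, 122433601 to 122443422 in GRCm38). Mvd stood at 41.7, 42.2 and 47.6 FPKM in TNF, against 24.5, 28.8 and 24.4 FPKM in Ctrl. Every TNF library lay above every Ctrl library, by a wide margin. The ratio of the means was 1.69, from 43.8 ± 3.29 FPKM in TNF and 25.9 ± 2.49 FPKM in Ctrl (log2 change 0.74, SE 0.08, limma adjusted p = 0.000455). With 1 library left out in turn, its log2 change was 0.68 to 0.82.

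Fdps encodes farnesyl diphosphate synthase, whose product feeds sterols as well as the prenyl groups of proteins (chromosome 3, 89093588 to 89101959). Fdps stood at 50.8, 45.6 and 50.5 FPKM in TNF, against 32.8, 37.4 and 28.9 FPKM in Ctrl. The groups did not overlap, and Ctrl 3 was the lowest library. The ratio of the means was 1.48 (log2 change 0.56, SE 0.09, limma adjusted p = 0.00354; log2 change 0.47 to 0.65 with 1 library left out). Exons of Fdps share 26.7% of their length with the predicted gene Gm43738, which averaged 0.108 FPKM in TNF and was listed at 0 in the Ctrl libraries.

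Hmgcs1, the cytosolic HMG-CoA synthase whose promoter is shown above, had the highest level of the sterol enzymes. It stood at 162, 145 and 154 FPKM in TNF, against 125, 138 and 116 FPKM in Ctrl. The TNF libraries all lay above the Ctrl libraries, with the lowest TNF value close to Ctrl 2. The ratio of the means was 1.22 (log2 change 0.28, SE 0.07, limma adjusted p = 0.0253), and the call was lost without Ctrl 1, Ctrl 3, TNF 1 or TNF 3 (adjusted p up to 0.085). Idi1, which converts isopentenyl diphosphate to its isomer, stood at 108, 102 and 100.1 FPKM in TNF, against 89.0, 91.8 and 78.7 FPKM in Ctrl. Here too the groups did not overlap. The log2 change was 0.26 (limma adjusted p = 0.0243), and the call was lost without TNF 1 or TNF 2 (adjusted p up to 0.0823).

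The other mevalonate genes did not pass. Acat2, the cytosolic thiolase that opens the pathway, averaged 50.9 ± 4.98 FPKM in TNF and 43.2 ± 3.35 FPKM in Ctrl (limma adjusted p = 0.0842). Pmvk, phosphomevalonate kinase, averaged 21.4 ± 3.09 FPKM in TNF and 17.6 ± 1.49 FPKM in Ctrl (adjusted p = 0.119). Both passed without TNF 2, the library lowest among TNF in both genes (adjusted p = 0.0262 for Acat2 and 0.0149 for Pmvk). Mvk, mevalonate kinase, averaged 13.3 ± 1.56 FPKM in TNF and 12.6 ± 0.378 FPKM in Ctrl, with a 95% interval of the log2 change from -0.11 to 0.24.

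Among the 11 squalene and sterol ring enzymes, 4 rose, none fell and 7 did not pass, with a median log2 change of 0.18. Hsd17b7 encodes a keto-steroid reductase that acts in the removal of methyl groups from the sterol (chromosome 1, 169949535 to 169969241). Hsd17b7 stood at 21.0, 18.4 and 17.4 FPKM in TNF, against 15.1, 14.1 and 13.5 FPKM in Ctrl. All TNF libraries lay above all Ctrl libraries. The ratio of the means was 1.33 (log2 change 0.39, SE 0.07, limma adjusted p = 0.00741). Sc5d, a sterol desaturase of the last steps (chromosome 9, 42251595 to 42264256), stood at 27.6, 24.9 and 24.8 FPKM in TNF, against 20.7, 21.1 and 18.9 FPKM in Ctrl. Its groups were also apart. The ratio of the means was 1.27 (log2 change 0.33, SE 0.06, limma adjusted p = 0.00631).

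Cyp51, the cytochrome P450 that demethylates lanosterol, stood at 97.4, 86.0 and 90.3 FPKM in TNF, against 75.6, 79.9 and 69.2 FPKM in Ctrl. The groups did not overlap. The log2 change was 0.28 (SE 0.07, limma adjusted p = 0.0194), and the call was lost without Ctrl 1, TNF 1 or TNF 3 (adjusted p up to 0.0638). Fdft1, squalene synthase, stood at 44.9, 40.0 and 46.5 FPKM in TNF, against 34.6, 40.3 and 34.6 FPKM in Ctrl. TNF 2 lay just under Ctrl 2, so the groups overlapped. The log2 change was 0.26 (SE 0.08, limma adjusted p = 0.0466), and the call was lost without Ctrl 1, Ctrl 3, TNF 1 or TNF 3 (adjusted p up to 0.141). The call was kept in 4 of the 9 alternatives that keep all libraries or drop both Ctrl 1 and TNF 3. Exons of Fdft1 share 18.3% of their length with Ctsb on the opposite strand, a gene at 62.0 ± 1.66 FPKM in TNF and 70.6 ± 2.80 FPKM in Ctrl. Whether the counting used strand is not stated in the sources used here, so reads from the shared stretch cannot be told apart.

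The ring enzymes that did not pass differed in size of change. Msmo1, the methylsterol oxidase, averaged 41.0 ± 4.40 FPKM in TNF and 32.8 ± 5.35 FPKM in Ctrl, with Ctrl 2 (38.7 FPKM) far above the other Ctrl libraries (log2 change 0.32, limma adjusted p = 0.087, and 0.0162 without Ctrl 2). Nsdhl, a sterol dehydrogenase of the same demethylation, stood at 34.5 to 39.6 FPKM in TNF and 31.4 to 34.1 FPKM in Ctrl without overlap (log2 change 0.18, adjusted p = 0.0605, and 0.0337 without TNF 2). Sqle, squalene epoxidase, which is known as a control point of the pathway, averaged 45.5 ± 2.04 FPKM in TNF and 41.6 ± 2.46 FPKM in Ctrl, with an interval of the log2 change from 0.00 to 0.26 (adjusted p = 0.147). Lss, lanosterol synthase, stood at 16.5 to 19.4 FPKM in TNF and 14.9 to 16.7 FPKM in Ctrl (interval 0.01 to 0.33, adjusted p = 0.128). For these 4 genes a missed threshold does not show that the groups were equal.

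Tm7sf2, a sterol reductase, averaged 9.29 ± 0.888 FPKM in TNF and 8.36 ± 0.698 FPKM in Ctrl (adjusted p = 0.267). Ebp, the sterol isomerase, averaged 22.3 ± 0.164 FPKM in TNF and 21.8 ± 2.43 FPKM in Ctrl, with an interval of the log2 change from -0.13 to 0.20. Dhcr7, the reductase that makes cholesterol in the last step, was the 1 enzyme with a change below 0, at 17.1 to 19.1 FPKM in TNF and 18.4 to 19.2 FPKM in Ctrl (log2 change -0.06, interval -0.18 to 0.05, limma adjusted p = 0.408).

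**Figure D2:**
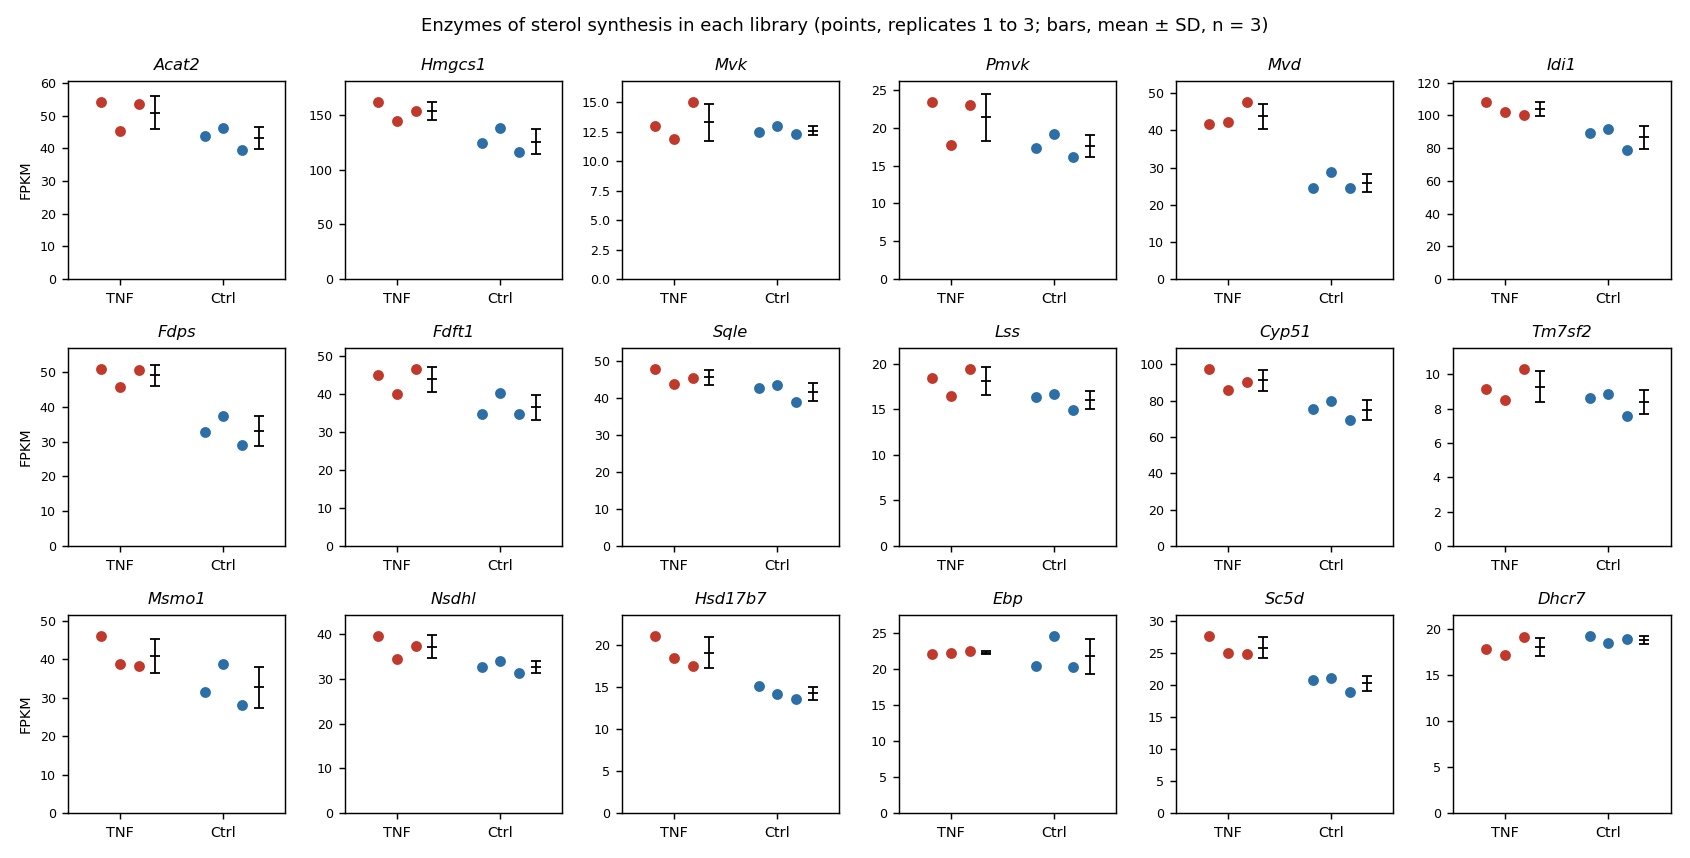
FPKM of the 18 enzymes of sterol synthesis in each library, with points for replicates 1 to 3 from left to right and bars for the mean ± SD (n = 3). The groups are apart in 9 panels, most clearly for Mvd (41.7 to 47.6 FPKM in TNF, 24.4 to 28.8 FPKM in Ctrl) and Fdps, and overlap in the other 9.

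Over the 18 enzymes, the TNF values lay above the Ctrl values without overlap in 9 genes and below in none, against 21.0% of all tested genes above and 20.4% below (41.4% in all). Their summed level was 845, 760 and 815 FPKM in TNF, against 663, 714 and 612 FPKM in Ctrl. The sums did not overlap, and their means stood in a ratio of 1.22. By step, the 7 mevalonate genes summed to 436 ± 22.6 FPKM in TNF and 345 ± 29.2 FPKM in Ctrl. The 11 later enzymes summed to 371 ± 20.7 FPKM in TNF and 318 ± 22.0 FPKM in Ctrl.

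The enzymes also varied together among libraries of the same group. In Ctrl, library 2 held the highest value of 16 of the 18 enzymes and library 3 the lowest of 17. In TNF, library 2 was below the group mean in 18 of the 18 and the lowest in 12. Over all tested genes, Ctrl 2 was the highest Ctrl library in 33.4%, Ctrl 3 the lowest in 31.7% and TNF 2 the lowest in 29.8%. The median enzyme stood at 94.3% of its group mean in TNF 2, 106% in Ctrl 2 and 93.1% in Ctrl 3. Genes that share their deviations in this way are not independent observations of the difference between the groups.

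**Figure D3:**
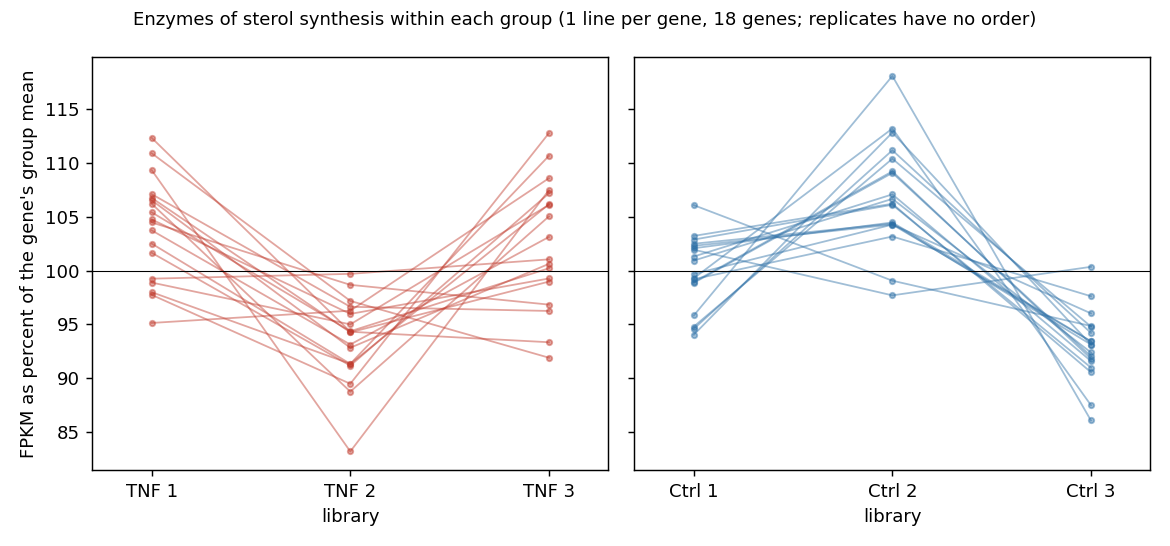
Level of each of the 18 sterol enzymes in each library as a percent of the gene's own group mean (1 line per gene; replicates have no order). TNF 2 lies below 100% for all 18 genes, and Ctrl 2 lies above it for 16 and Ctrl 3 below it for 17.

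The regulators split. Srebf2 and Insig1 rose, Scap fell, and Srebf1 and Insig2 did not pass. Insig1, which is itself a target of SREBP and holds Scap back, stood at 90.2, 83.7 and 86.4 FPKM in TNF, against 70.0, 80.9 and 68.5 FPKM in Ctrl. The groups did not overlap, and Ctrl 2 was again the highest Ctrl library. The log2 change was 0.25 (SE 0.07, limma adjusted p = 0.0341), and the call was lost on leaving out any single library but Ctrl 2 (adjusted p up to 0.108). Its relative Insig2 stood at 8.85, 8.31 and 8.95 FPKM in TNF, against 8.26, 8.83 and 9.19 FPKM in Ctrl. These groups overlapped fully, with an interval of the log2 change from -0.13 to 0.12. The level of Insig1 was 9.97 ± 0.284 times that of Insig2 in TNF and 8.37 ± 0.861 times in Ctrl.

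Srebf2 stood at 45.8, 45.2 and 47.7 FPKM in TNF, against 42.7, 40.9 and 42.1 FPKM in Ctrl. The groups were apart, but the change was small (log2 change 0.14, SE 0.04, limma adjusted p = 0.042), and its call was lost when any of the 6 libraries was left out (adjusted p 0.0747 to 0.128). The call was kept in 4 of the 9 alternatives that keep all libraries or drop both Ctrl 1 and TNF 3. Srebf1 stood at 24.1, 25.3 and 28.5 FPKM in TNF, against 30.4, 27.4 and 30.2 FPKM in Ctrl. TNF 3 lay above Ctrl 2, and the log2 change of -0.17 did not pass (adjusted p = 0.123, and 0.0412 without TNF 3). The ratio of Srebf2 to Srebf1 within a library averaged 1.79 ± 0.114 in TNF and 1.43 ± 0.0511 in Ctrl. The table holds 1 value per gene, so the forms of Srebf1 that start at different promoters cannot be told apart.

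Scap, the escort of SREBP, stood at 9.91, 9.17 and 10.7 FPKM in TNF, against 12.0, 11.2 and 11.8 FPKM in Ctrl. All TNF libraries lay below all Ctrl libraries. The log2 change was -0.22 (SE 0.06, limma adjusted p = 0.0366), and the call was lost without Ctrl 1, Ctrl 3, TNF 1 or TNF 2 (adjusted p up to 0.114). Stard4, a cytosolic carrier of cholesterol and a known SREBP target, also fell, opposite to the enzymes. It stood at 64.5, 61.3 and 62.3 FPKM in TNF, against 71.9, 71.5 and 66.2 FPKM in Ctrl. The groups did not overlap. The log2 change was -0.15 (SE 0.05, limma adjusted p = 0.0489), and the call was lost on leaving out any single library but Ctrl 3 (adjusted p up to 0.158). It was kept in only 3 of the 9 alternatives that keep all libraries or drop both Ctrl 1 and TNF 3.

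The 6 fatty acid synthesis genes had no call in either direction by limma with adjustment or in the 9 alternatives that keep all libraries or drop both Ctrl 1 and TNF 3, and their median log2 change was -0.05. Scd2, a stearoyl-CoA desaturase, had the highest level of the 30 genes, at 474, 464 and 503 FPKM in TNF, against 489, 507 and 451 FPKM in Ctrl. The groups overlapped, with an interval of the log2 change from -0.14 to 0.13. Its paralog Scd1 averaged 107 ± 2.78 FPKM in TNF and 95.6 ± 15.6 FPKM in Ctrl, where Ctrl 3 (78.3 FPKM) was low, as it was for the sterol enzymes. How reads shared between these paralogs were counted is not given in the sources used here, and the same holds for Idi1 and its paralog. Elovl6, a fatty acid elongase, averaged 27.4 ± 0.75 FPKM in TNF and 27.7 ± 0.647 FPKM in Ctrl (interval of the log2 change -0.11 to 0.08).

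The other 3 genes of fatty acid synthesis did not pass. Acly, the ATP citrate lyase that supplies acetyl-CoA to both pathways, stood at 102, 97.1 and 108 FPKM in TNF, against 118, 111 and 114 FPKM in Ctrl. The groups were apart, and the adjusted p was 0.0556 by limma (log2 change -0.16, and 0.0422 without TNF 3). Acaca, acetyl-CoA carboxylase, stood at 7.40 to 7.97 FPKM in TNF and 8.22 to 8.49 FPKM in Ctrl, also apart (adjusted p = 0.133). Fasn, fatty acid synthase, averaged 48.9 ± 3.97 FPKM in TNF and 51.5 ± 1.67 FPKM in Ctrl (adjusted p = 0.413). Without adjustment, p was 0.014 for Acly, 0.0473 for Acaca and 0.246 for Fasn.

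**Figure D4:**
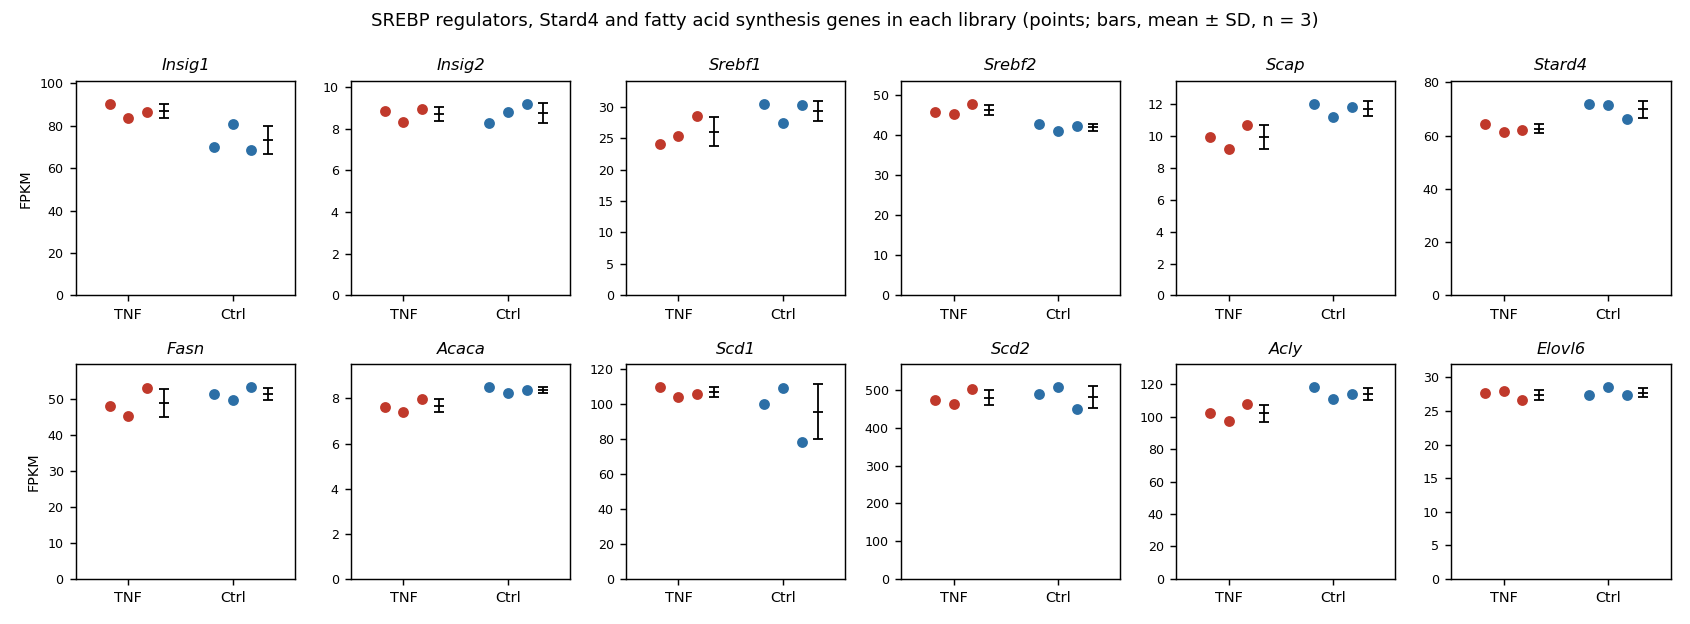
FPKM of the 5 regulators, Stard4 and the 6 fatty acid synthesis genes in each library, with bars for the mean ± SD (n = 3). Insig1 and Srebf2 are higher in TNF without overlap. Scap, Stard4, Acly and Acaca are lower without overlap, though Acly and Acaca did not pass the test. Insig2, Srebf1, Fasn, Scd1, Scd2 and Elovl6 overlap.

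Of 16 tested genes of intracellular sterol transport and esters, 8 rose, 2 fell and 6 did not pass, with a median log2 change of 0.15. Beside this and the lists and markers below stand the shares over all tested genes, 12.9% higher and 11.1% lower. The lists were chosen with earlier results of these data known, so their counts are not a test of a pathway. Tmem97, a sterol-responsive membrane protein gene known to affect cholesterol levels, stood at 127, 123 and 120 FPKM in TNF, against 82.7, 87.4 and 79.5 FPKM in Ctrl, without overlap (log2 change 0.56, SE 0.05, limma adjusted p = 0.000164). Gramd1b, which moves cholesterol from the plasma membrane to the endoplasmic reticulum, averaged 2.45 ± 0.031 FPKM in TNF and 0.951 ± 0.0874 FPKM in Ctrl (adjusted p = 0.000232). It reached the filter of 1 FPKM only through its TNF level, as did Gramd1a, another of the rises (0.819 FPKM in Ctrl). Without the filter, limma's adjusted p was 0.00264 for Gramd1b and 0.0557 for Gramd1a. Stard5, a sterol-binding protein gene, averaged 24.0 ± 1.47 FPKM in TNF and 17.2 ± 0.581 FPKM in Ctrl (adjusted p = 0.00082). Lamp1, a lysosomal membrane protein gene, averaged 265 ± 5.67 FPKM in TNF and 205 ± 9.64 FPKM in Ctrl (adjusted p = 0.00132). These 4 calls held without any single library, but the other 4 rises and both falls did not. The list had 5 rises without Ctrl 1 or TNF 3, 6 without Ctrl 3 or TNF 1, 4 without Ctrl 2 or TNF 2, and 4 without the filter on low values. It had 0 falls by limma's adjusted p under each of these changes, against 2 with all libraries and the filter (Lipa, unadjusted p = 0.00792, and Osbpl9, unadjusted p = 0.00901).

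Among 22 tested lipogenic genes outside the 30, there were 6 rises and 4 falls, and 12 genes did not pass; the median log2 change was 0.04. Hacd2, a dehydratase of fatty acid elongation, stood at 18.4, 19.4 and 18.6 FPKM in TNF, against 7.87, 8.25 and 7.44 FPKM in Ctrl (log2 change 1.16, SE 0.05, limma adjusted p = 6.72e-06). Pnpla3, a lipid droplet protein gene raised by SREBP in liver, averaged 3.21 ± 0.334 FPKM in TNF and 0.436 ± 0.276 FPKM in Ctrl (adjusted p = 0.000232). It reached the filter of 1 FPKM only through its TNF level. Without the filter, limma's adjusted p for Pnpla3 was 0.0042. Acss2, an acetyl-CoA synthetase gene, fell to 8.73 ± 0.439 FPKM in TNF, against 12.7 ± 0.259 FPKM in Ctrl (adjusted p = 0.000335). Mlxipl, the carbohydrate-responsive activator of lipogenesis ChREBP, fell to 11.7 ± 1.22 FPKM in TNF, against 19.2 ± 1.03 FPKM in Ctrl (adjusted p = 0.000668).

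Of 14 genes of SREBP processing and sterol-regulated degradation, 2 rose, 1 fell and 11 did not pass. These counts were near the shares over all tested genes (12.9% higher and 11.1% lower). Erlin1, whose protein binds cholesterol in the endoplasmic reticulum, fell to 7.58 ± 0.0867 FPKM in TNF, against 10.8 ± 0.174 FPKM in Ctrl (limma adjusted p = 0.000219). Rnf145, a ubiquitin ligase that acts on Scap, averaged 14.3 ± 0.433 FPKM in TNF and 11.9 ± 0.488 FPKM in Ctrl (adjusted p = 0.00821). The ubiquitin-conjugating enzyme gene Ube2g2 averaged 14.1 ± 1.05 FPKM in TNF and 11.7 ± 0.699 FPKM in Ctrl (adjusted p = 0.029, lost without Ctrl 2, Ctrl 3, TNF 1 or TNF 2).

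Of 6 tested genes of sterol sensing by LXR, the oxysterol receptor, and of sterol export, 1 rose, 2 fell and 3 did not pass. The receptor gene Nr1h2 averaged 14.3 ± 1.07 FPKM in TNF and 12.1 ± 0.279 FPKM in Ctrl (limma adjusted p = 0.0304, lost without Ctrl 1, Ctrl 3, TNF 2 or TNF 3). Its partner gene Rxra fell to 10.5 ± 0.39 FPKM in TNF, against 14.0 ± 0.482 FPKM in Ctrl (adjusted p = 0.00105). The LXR target Lpcat3, a phospholipid acyltransferase gene, fell to 36.3 ± 1.89 FPKM in TNF, against 44.5 ± 0.473 FPKM in Ctrl (adjusted p = 0.00355). Of 10 genes that use isoprenoids, 2 fell and 8 did not pass, against 11.1% of all tested genes called lower. Pdss1, which makes the side chain of ubiquinone from the product of Fdps, stood at 11.2, 11.7 and 11.8 FPKM in TNF, against 21.1, 19.5 and 19.3 FPKM in Ctrl (log2 change -0.74, SE 0.05, limma adjusted p = 5.3e-05). Coq2, the next enzyme of ubiquinone synthesis, averaged 15.4 ± 0.104 FPKM in TNF and 18.1 ± 1.37 FPKM in Ctrl (adjusted p = 0.0291, lost without Ctrl 1 or any TNF library).

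**Figure D5:**
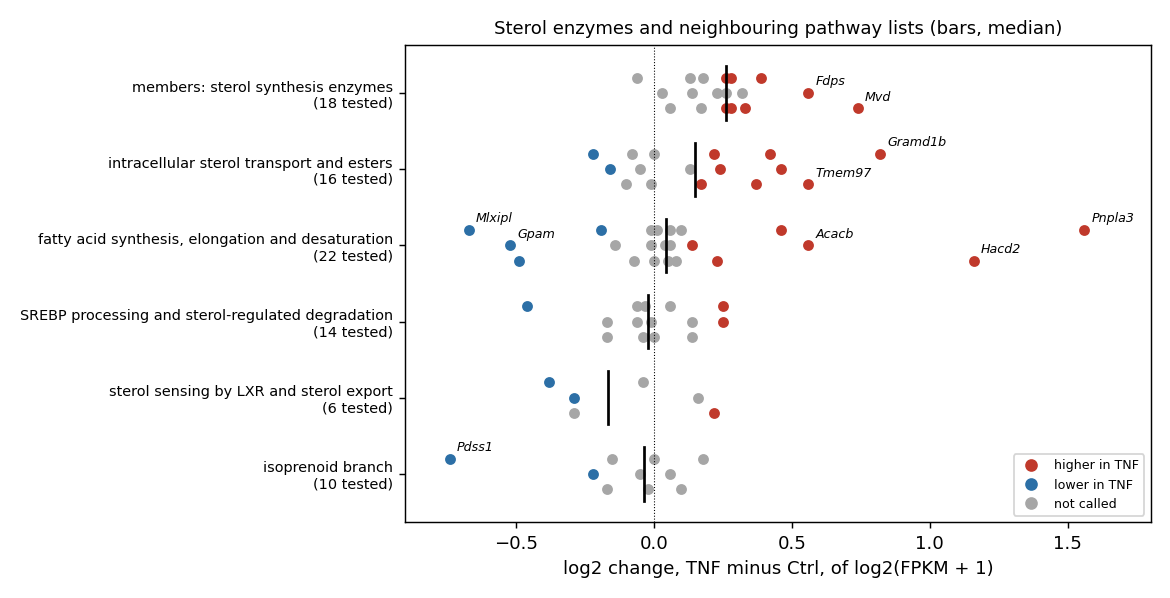
Log2 change (TNF minus Ctrl, of log2(FPKM + 1)) of each tested gene of the 18 sterol enzymes and of 5 neighbouring lists, with bars at the medians. The enzymes lie mostly right of 0 (median 0.26), while the lipogenic list runs from -0.67 for Mlxipl to 1.56 for Pnpla3. Pnpla3, Gramd1b and Gramd1a reached the filter of 1 FPKM only through their TNF levels.

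Markers of fat cells, which make lipid, stood at a low level and were higher on average in TNF, but Ctrl 1 lay near TNF 3. Among the tested markers, only Cfd had groups that did not overlap. Under the filter, Plin1 stood at 0.200 to 0.493 FPKM in TNF and 0 to 0.174 FPKM in Ctrl, also apart, and Lep overlapped. Without the filter, limma's adjusted p for Plin1 was 0.0993. Summed over 6 markers the level was 18.2, 13.9 and 9.09 FPKM in TNF, against 8.45, 2.16 and 1.53 FPKM in Ctrl, and of 4 tested markers 2 rose (Cfd and Adipoq) and 2 did not pass. Cfd was listed at 0 in Ctrl 2 and Ctrl 3, as was Adipoq, and the call of Adipoq was lost without Ctrl 2, Ctrl 3, TNF 1 or TNF 2. Cfd and Adipoq reached the filter of 1 FPKM only through their TNF levels (Ctrl means of 0.0947 and 0.51 FPKM). Without the filter neither was called (limma adjusted p = 0.0541 for Cfd and 0.136 for Adipoq). Of 10 proliferation markers, 1 rose, 1 fell and 8 did not pass, with summed levels of 388 to 410.2 FPKM in TNF and 391 to 400.1 FPKM in Ctrl. The part of other cell types, or of a shift among epithelial cells, in the results was not tested.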

How the data were processed

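The authors deposited 1 table with a value per gene for 3 TNF and 3 Ctrl libraries, named normalized counts. Multiplied by exonic gene length from GENCODE M21 (GRCm38), the values summed to 9.59e+08 to 9.64e+08 per library, close to what FPKM gives, so the deposited values were treated as FPKM. Per the submitters' processing notes, cutadapt 1.9, FastQC and GRCm38 were used; aligner and counting program are not given in the sources used here. Gene identifiers were found in that annotation for 29862 of 29940 genes. Reads per library were estimated from the commonest low value of single-exon genes within a preset window, which bounds the estimate. Only 43.2% to 46.4% of low values lay within 0.1 of a whole number of reads, so no count test was run.

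The 12350 genes whose 6-library mean reached 1 FPKM were tested as log2(FPKM + 1) with limma 3.58.1 in R 4.3.3, with a mean-dependent prior variance, two-sided, with group alone as a term, and Benjamini-Hochberg adjustment. This scale understates changes of low genes. The design allowed for counts or normalized values, and the values called for the latter. The procedure was run on simulated data in which each gene varied independently, unlike the sterol enzymes here. Its outcome is not given here and is not used as support. The members and lists were chosen with earlier results of these data known. All members are named; of each neighbouring list the up to 4 called genes with the smallest p are named. Exons of 11 of the 30 genes overlap another gene. Alternatives were other pseudocounts, filters and scalings, a replicate block, a constant prior variance and the removal of libraries. Promoter sequences are from RefSeq (GRCm38.p6).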

Additional observations from a re-analysis of the deposited data

How the results depend on the processing

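Of 30 genes, 10 were called higher and 2 lower in TNF. The count of higher genes was 4 without the filter on low values, 6 with the replicate block, 4 without both Ctrl 1 and TNF 3, and 4 to 10 with 1 library left out. The count of lower genes was 1 with a pseudocount of 5, 1 with median-ratio scaling, 1 with the replicate block, 0 without the filter, 0 with a constant prior variance, 0 without both Ctrl 1 and TNF 3, and 0 to 3 with 1 library left out. Over all genes, 1595 were higher and 1374 lower. These counts were 1734 and 1024 without the filter, where 29940 genes were tested, and 821 and 596 without both Ctrl 1 and TNF 3. With 1 library left out they were 1149 to 1430 and 913 to 1177. Ctrl 1 and TNF 3 were low in the macrophage marker Lyz2 (4.65 and 2.72 FPKM, against 15.6 to 16.0 FPKM in the others). Csf1r was at 0.203 FPKM in both, against 0.779 to 0.921 FPKM in the others. Cd68 did not set TNF 3 apart (3.02 FPKM, against 2.88 FPKM in TNF 2). Over the 5 neighbouring lists, 17 genes were higher and 11 lower; these were 10 higher without the filter, 10 higher and 7 lower without both libraries, and 10 to 12 and 7 to 10 with 1 library left out. The direction of the log2 change turned only in genes near 0 that were not called in either analysis. With 1 library left out, Mvk ranged from -0.02 to 0.14, Ebp from -0.01 to 0.12, Insig2 from -0.04 to 0.02, Scd2 from -0.05 to 0.03 and Elovl6 from -0.03 to 0.01. Scd2 was at 0.10 with quantile normalization, and without both Ctrl 1 and TNF 3, Mvk was at -0.02 and Ebp at -0.01. The cause was not tested. Same-numbered libraries did not deviate together (correlations of 0.00, -0.10 and 0.01), so no pairing by number was seen. With 3 libraries per group, such correlations cannot settle whether samples were paired. What depth and the number of libraries each limit was not tested.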

Other observations

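Several genes of sterol export lay under the 1 FPKM filter and were tested only in the alternative without it. Abca1, which loads cholesterol onto apolipoprotein, stood at 0.608, 0.495 and 0.389 FPKM in TNF, against 1.18, 1.04 and 1.01 FPKM in Ctrl. Abcg1, which also exports cholesterol, averaged 0.555 ± 0.00974 FPKM in TNF and 0.225 ± 0.0613 FPKM in Ctrl. The gut sterol exporter gene Abcg5 stood at 0.0263, 0 and 0.0693 FPKM in TNF, against 0.312, 0.405 and 0.282 FPKM in Ctrl. Its partner Abcg8 stood at 0.018, 0 and 0 FPKM in TNF, against 0.12, 0.324 and 0.235 FPKM in Ctrl. Without the filter, limma's adjusted p was 0.0261 for Abca1, 0.0154 for Abcg1, 0.00872 for Abcg5 and 0.0464 for Abcg8. The list of sterol sensing and export then had 5 genes lower, against 2 with the filter. Over all 29940 genes, limma without the filter called 1024 lower and 1734 higher. In each of these 4 genes the groups did not overlap, with Abca1, Abcg5 and Abcg8 lower and Abcg1 higher in TNF. Among all genes tested with the filter, 41.4% had groups that did not overlap. The 4 genes were chosen after their values were seen.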
